A study of Mus musculus with 10 samples.

Results

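The protein genes of the cytosolic ribosome were compared in the liver of lactating mice fed diets of high or low glycaemic index. The group was chosen by gene symbol: Rpl or Rps followed by a digit, with Rplp0, Rplp1, Rplp2 and Rpsa added and the S6 kinase genes and pseudogenes left out. It held 49 of the 18193 genes that had a probe set (a set of short probes designed against 1 transcript) with a single gene symbol. Each gene was read from the probe set with the highest mean over the 10 arrays. Of the 49 members, 43 encode core ribosomal proteins, 22 of the large and 21 of the small subunit. Another 5 are paralogs of a core protein (Rpl3l, Rpl7l1, Rpl22l1, Rpl39l and Rps27l), and 1, Rps19bp1, entered by its symbol alone and encodes a binding partner of Rps19. The pseudogenes left out were Rps15a-ps6 and Rps4l.

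All mice were of the QSi5 strain, and the labels give no genetic change. From pregnancy to the peak of lactation, 5 mice ate a diet in which glucose made up 51.4% of the weight, with a gross energy of 15.6 MJ/kg (HGI, high glycaemic index). The other 5 mice ate a diet in which the same weight share was starch rich in amylose, with 16.3 MJ/kg (LGI, low glycaemic index). Liver RNA of each mouse was read on 1 Affymetrix array, and ages of the mice are not given in the sources used here. The labels give a positive energy balance for every HGI mouse and a negative one for every LGI mouse, so diet and energy balance cannot be told apart. Values are log2 expression per probe set, and every difference is HGI minus LGI on the log2 scale.

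A ribosome joins a small subunit, which reads the messenger RNA, to a large subunit, which forms the peptide bond. Messenger RNAs of ribosomal proteins begin with a cytosine followed by an unbroken run of pyrimidines, the 5′ terminal oligopyrimidine (TOP) motif, through which the kinase complex mTORC1 controls their translation in response to nutrients and insulin. That control acts on how the messenger RNAs are loaded onto ribosomes, and arrays of total RNA read the amount of messenger RNA and not its translation. In the liver, ribosomes supply both the cell's own proteins and a large output of secreted plasma proteins.

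Start-site sequences are shown for members whose diet values are given further on, since the TOP motif lies at the start of transcription. Each window holds 10 bases before and 20 bases from the annotated start in RefSeq (mouse build GRCm38.p6), on the gene's own strand, 5′ to 3′. Capitals mark a run that opens with C and goes on with at least 4 pyrimidines (C or T) at the annotated start, or with at least 6 anywhere in the window. Rps6 lies at chr4:86857348-86857377, Rps27 at chr3:90213629-90213658, Rps4x at chrX:102189372-102189401 and Rps3a1 at chr3:86142649-86142678, all on the minus strand. Rplp2 lies at chr7:141447641-141447670, Rpl4 at chr9:64173377-64173406, Rpl22l1 at chr3:28805498-28805527 and Rps27l at chr9:66946076-66946105 (the first of 2 listed starts), all on the plus strand.
Rps6: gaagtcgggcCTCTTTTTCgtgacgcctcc
Rps27: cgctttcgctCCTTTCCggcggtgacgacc
Rplp2: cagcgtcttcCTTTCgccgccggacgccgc
Rps4x: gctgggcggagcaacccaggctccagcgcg
Rpl4: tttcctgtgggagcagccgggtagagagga
Rps3a1: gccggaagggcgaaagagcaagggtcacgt
Rps27l: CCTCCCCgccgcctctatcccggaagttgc
Rpl22l1: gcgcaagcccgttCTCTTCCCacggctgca

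The run stands exactly at the annotated start in Rps6, Rps27 and Rplp2, inside the window in Rpl22l1 and before the start in Rps27l, and these letters are not in the windows of Rps4x, Rpl4 and Rps3a1. Of the 49 members, 44 had an entry in the promoter table, and Rps29, Rps20, Rpl7, Rpl8 and Rps14 had none. The run at the start was found in 8 of 44 members (18.2%), against 3.01% of the 27025 genes in the table. The longer run anywhere in the 30-base window was found in 21 of 44 members (47.7%), against 15.6% of all genes. CCGGAAG, the core letters read by transcription factors of the ETS family, was searched on both strands in the 300 bases around the start. It was present in 21 of 44 members (47.7%), against 9.93% of all genes. A match describes the annotated sequence, and annotated starts can lie some bases away from the start used in liver.

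Signal and array quality set the precision of what follows. Of the 10 hepatocyte markers listed, 9 had a probe set and none of these lay below the median of every array. HGI 1 had the smallest spread of values (SD 2.16, against 2.26 to 2.31 in the other 9 arrays). LGI 4 and HGI 1 had the lowest mean correlations with the arrays of their own diet, 0.988 and 0.989. The Gapdh 3′ minus 5′ control difference, a sign of RNA quality, averaged 0.55 in HGI (SD 0.28, n = 5) and 0.59 in LGI (SD 0.21, n = 5). It was highest in HGI 5, at 0.99. The same difference for Actb was larger, on average 1.71 in HGI (SD 0.30) and 1.88 in LGI (SD 0.39), and highest in LGI 4, at 2.27. All 11 Kupffer cell and macrophage markers measured had a higher mean in HGI (median difference 0.28), as had all 10 liver endothelial markers (median 0.21) and all 5 erythroid markers measured (median 0.093), none past the threshold. Without HGI 5 the Kupffer cell median was 0.13 with 2 of 11 below 0, and 1 lay below 0 without HGI 1 or LGI 2. Without HGI 2 the endothelial median was 0.13 with 1 of 10 below 0. The erythroid list was uneven: Slc4a1, the anion exchanger of red cells, stood at 2.25 (adjusted p = 0.0625) and Alas2, the first enzyme of erythroid haem synthesis, at 1.34 (adjusted p = 0.262). Over all marker lists, 1 gene was called, Prom1 of the cholangiocyte list, which was lower in HGI with a difference of -1.54 (adjusted p = 0.048). Of the 6 cholangiocyte markers measured, 2 lay above 0, Krt19 at 0.12 and Epcam at 0.14, and the median was -0.13. Sox9 stood at -0.28, and Krt7 at -0.091 and Cftr at -0.18 lay below the median of every array. These genes were named after their values were seen. The mean log2 of the Kupffer cell list ran from 7.42 to 8.24 over the HGI arrays and from 7.13 to 7.87 over the LGI arrays, that of the endothelial list from 6.20 to 6.80 and 6.08 to 6.44, and that of the erythroid list from 5.998 to 6.54 and 5.19 to 5.90. Their part in the values of the ribosomal genes was not tested. In bulk liver, fewer cells of a type and less RNA per cell cannot be told apart.

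No member passed the threshold, an adjusted p under 0.05 in limma over all 45037 probe sets tested. The members' count was 0 of 49, and over all probe sets 29 were called, or 0.0644%. The smallest adjusted p among members was 0.461. Before adjustment, limma's p was under 0.05 for 4 members (8.16%), against 9.3% of all genes, and all 4 had the higher mean in HGI: Rps4x, Rpl4, Rps3a1 and Rps20. Among the 886 bright genes, those with a mean log2 of 10 or more, the share was 22.8%. With single arrays left out, the members' count was 2 (4.08%) without HGI 2, LGI 2 or LGI 5, where all genes stood at 8.55%, 7.58% and 7.38%. It was 10 (20.4%) without HGI 1, where all genes stood at 9.71% and the bright genes at 20.7%. The size of the members' share thus rests on single arrays.

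The differences were small and lay mostly above 0. Their median was 0.031, the quartiles were -0.018 and 0.078, and the extremes were -0.22 and 0.30. A difference below 0 was seen in 16 of 49 members (32.7%), where 58.2% of all genes and 61.4% of the 886 bright genes (mean log2 of 10 or more) lay below 0. The median difference over all genes was -0.025, and over the bright genes it was -0.048. This background moved with HGI 1: without that array the bright genes stood at -0.0053 (51.0% below 0) and all genes at -0.013 (54.1% below 0). Differences below -0.1 were found in 5 members (10.2%, against 27.1% of all genes) and above 0.1 in 8 members (16.3%, against 16% of all genes). These counts describe a group whose members share the same 10 arrays and received no test of their own. The median 95% confidence interval of a member reached 0.196 to either side of its difference, and in 47 of 49 members the whole interval lay within 0.5 of 0, so larger diet differences lay outside the interval for those genes. The interval included 0 in 45 members. Leaving out HGI 5, HGI 2, LGI 1 or HGI 1 moved the members' median to 0.010, 0.015, 0.046 or 0.080.

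**Figure D1:**
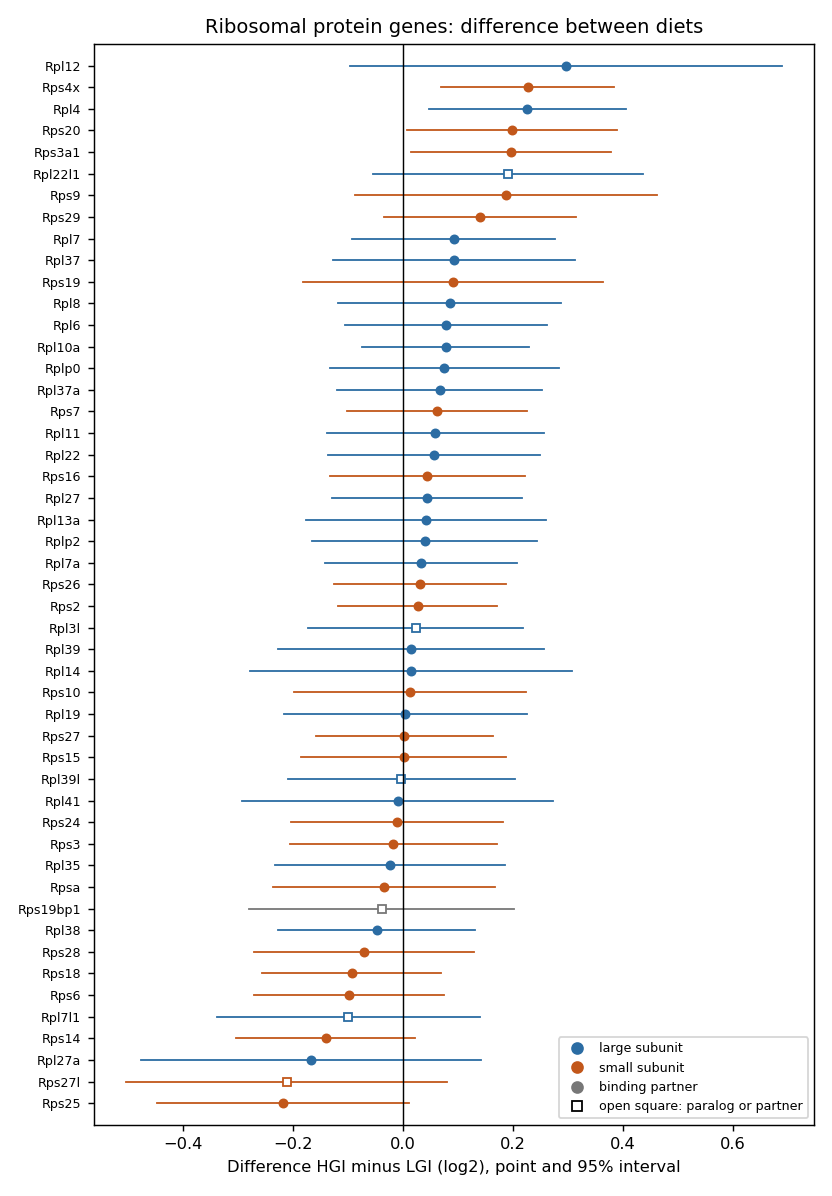
Difference between the diets (HGI minus LGI, log2) for each of the 49 members, with limma's 95% confidence interval and colours for the subunit; open squares are paralogs and the binding partner. All points but that of Rpl12 lie within 0.25 of 0, and the intervals of 45 members include 0.

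Among the 21 core proteins of the small subunit the median difference was 0.012, and 8 lay below 0. That median turned to -0.00099 without HGI 2 and -0.010 without HGI 5, and it was 0.043 without HGI 1. Rps4x, an X-linked protein of the small subunit, had the smallest adjusted p of the group. Its log2 values in HGI 1 to HGI 5 were 12.44, 12.52, 12.43, 12.53 and 12.52, and in LGI 1 to LGI 5 they were 12.22, 12.34, 12.37, 12.17 and 12.21. Every HGI mouse lay above every LGI mouse, which was true in either direction of 1 of 49 members (2.04%) and of 2.17% of all genes. The difference was 0.23 ± 0.073 (SE, n = 5 per diet; adjusted p = 0.461), a 1.17-fold ratio, with an exact two-sided permutation p of 0.00794 before any adjustment, the smallest that 252 assignments of the arrays can give. Leaving out single arrays gave 0.20 to 0.25. Its second probe set, with a mean log2 of 4.68, had a difference of 0.13.

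Rps3a1 encodes a small subunit protein at the messenger RNA exit side. Its values were 12.22, 12.40, 12.35, 12.28 and 12.54 in HGI and 12.23, 12.16, 12.24, 12.00 and 12.18 in LGI. The diets overlapped through HGI 1, which lay below LGI 1 and LGI 3. The difference was 0.20 ± 0.084 (adjusted p = 0.624). Rps20, a protein of the small subunit head, read 12.00, 12.13, 12.09, 12.30 and 12.26 in HGI and 11.87, 11.86, 12.05, 12.12 and 11.88 in LGI, a difference of 0.20 ± 0.088 (adjusted p = 0.650). LGI 3 and LGI 4 reached into the HGI range. The second bright probe set of Rps20 also had a difference of 0.20, while its 2 dim ones stood at 0.012 and -0.056.

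On the other side of 0 stood Rps14, a protein of the small subunit platform. Its values were 11.96, 12.00, 11.85, 11.95 and 12.04 in HGI and 12.20, 12.04, 12.07, 12.00 and 12.18 in LGI. The diets overlapped only through HGI 2 and HGI 5 against LGI 4. The difference was -0.14 ± 0.076 (adjusted p = 0.721), and the second probe set of the gene gave -0.15. Rps25, which is needed for initiation at several viral internal entry sites, was read by a single dim probe set at 4.77, 4.56, 4.47, 4.28 and 4.83 in HGI and 4.85, 4.77, 4.76, 4.94 and 4.69 in LGI. Its difference was -0.22 ± 0.11 (adjusted p = 0.684), the lowest of the 49 members, with HGI 1 and HGI 5 inside the LGI range.

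Rps6, the substrate of the S6 kinases that act below mTORC1, read 7.56, 7.59, 7.73, 7.81 and 7.76 in HGI and 7.65, 7.84, 7.80, 7.84 and 7.82 in LGI. HGI 1 and HGI 2 lay below every LGI mouse and the other 3 HGI mice inside the LGI range, and the difference was -0.099 ± 0.080 (adjusted p = 0.841). Rpsa, a small subunit protein also known as the laminin receptor precursor, read 11.62, 11.80, 11.72, 11.50 and 11.88 in HGI and 11.61, 11.68, 11.68, 11.92 and 11.80 in LGI. Its difference of -0.035 (adjusted p = 0.967) turned to 0.017 without HGI 4 and to 0.011 without LGI 4. The other core proteins of the small subunit lay between Rps18 at -0.094 and Rps9 at 0.19, with adjusted p of at least 0.753. Among them Rps16 lay below the median of every array, with a mean log2 of 2.66 in HGI and 2.62 in LGI.

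**Figure D2:**
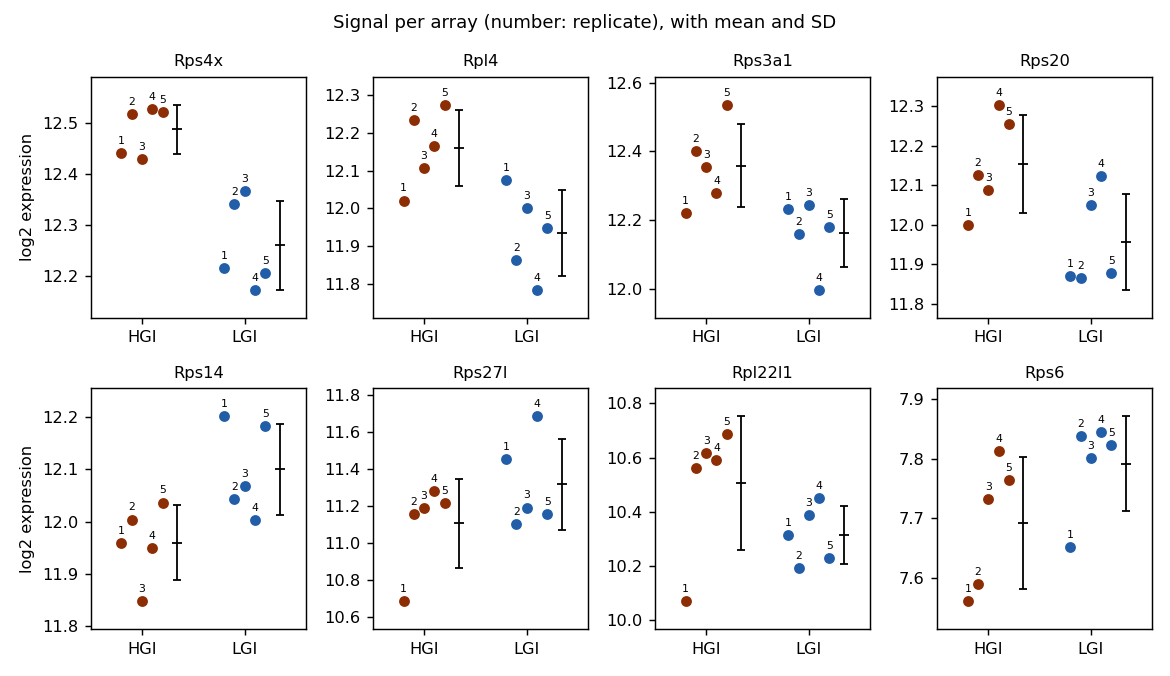
Log2 expression of Rps4x, Rpl4, Rps3a1, Rps20, Rps14, Rps27l, Rpl22l1 and Rps6 on each array, 1 panel per gene, with the number of the mouse beside each point and bars for the mean ± SD of the 5 mice of a diet. The diets separate completely in Rps4x alone, and HGI 1 is the lowest HGI point in Rpl4, Rps3a1, Rps20, Rps27l, Rpl22l1 and Rps6.

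Among the 22 core proteins of the large subunit the median difference was 0.049, and 4 lay below 0. It ran from 0.021 without HGI 5 to 0.10 without HGI 1, and was 0.033 without HGI 2 and 0.031 without LGI 2. Rpl4, a protein that lines the exit tunnel of the nascent chain, read 12.02, 12.23, 12.11, 12.16 and 12.27 in HGI and 12.08, 11.86, 12.00, 11.78 and 11.95 in LGI. HGI 1 lay below LGI 1, and the other 4 HGI mice lay above every LGI mouse. The difference was 0.23 ± 0.083 (adjusted p = 0.534; exact two-sided permutation p = 0.016), and leaving out single arrays gave 0.19 to 0.26.

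Rpl12, a protein at the base of the stalk, had the largest difference of the group, 0.30 ± 0.18 (adjusted p = 0.766), on a dim probe set. It read 3.89, 5.06, 4.33, 4.42 and 4.08 in HGI and 4.13, 4.26, 3.74, 4.17 and 3.98 in LGI. HGI 2 stood far above the others, and without it the difference was 0.12. At the other end, Rpl27a read 7.36, 7.30, 7.55, 7.98 and 7.38 in HGI and 7.43, 7.46, 7.72, 7.77 and 8.03 in LGI, with a difference of -0.17 ± 0.14 (adjusted p = 0.856) and wide overlap. Rpl38, a protein studied for its part in the translation of Hox messenger RNAs in the embryo, stood at -0.048 (adjusted p = 0.946), with 12.79 to 13.08 in HGI and 12.93 to 13.13 in LGI.

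The acidic stalk, which recruits translation factors to the large subunit, was represented by Rplp0 and Rplp2. Rplp0 read 11.79, 12.18, 12.07, 12.05 and 12.11 in HGI and 12.12, 11.78, 11.93, 12.10 and 11.90 in LGI, a difference of 0.075 ± 0.097 (adjusted p = 0.918). Rplp2 read 11.25, 11.54, 11.52, 11.52 and 11.65 in HGI and 11.41, 11.39, 11.43, 11.69 and 11.36 in LGI, a difference of 0.039 (adjusted p = 0.964). In both genes HGI 1 lay below 4 or more LGI mice. Rpl11, which with Rpl5 and the 5S RNA forms the particle that restrains Mdm2, read 11.19, 11.56, 11.46, 11.58 and 11.65 in HGI and 11.40, 11.38, 11.50, 11.44 and 11.42 in LGI. Its difference was 0.059 (adjusted p = 0.937). Of the other core proteins of the large subunit, none lay outside the range from Rpl35 at -0.023 to Rpl7 and Rpl37 at 0.092, with adjusted p of at least 0.870.

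Paralogs and their partners did not share 1 direction. Rps27l, a paralog of Rps27 known as a target of p53, read 10.69, 11.16, 11.19, 11.28 and 11.22 in HGI and 11.45, 11.10, 11.19, 11.68 and 11.16 in LGI. HGI 1 was the lowest and LGI 4 the highest of the 10 mice, and the other 8 values ran from 11.10 to 11.45. The difference was -0.21 ± 0.14 (adjusted p = 0.782), with -0.23 and -0.16 on its other probe sets, and it was -0.11 without HGI 1 and -0.015 without HGI 1 and LGI 4. Rps27 itself was read by a single dim probe set, at 5.07, 5.196, 5.18, 5.23 and 5.23 in HGI and 5.19, 5.14, 5.18, 5.07 and 5.32 in LGI, a difference of 0.0023 (adjusted p = 0.998).

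Rpl22l1, the paralog of Rpl22, read 10.07, 10.56, 10.62, 10.59 and 10.69 in HGI and 10.31, 10.19, 10.39, 10.45 and 10.23 in LGI. HGI 1 was the lowest mouse of all, and the other 4 HGI mice lay above every LGI mouse. The difference was 0.19 ± 0.11 (adjusted p = 0.761), and it was 0.30 without HGI 1 (adjusted p = 0.288). Rpl22 read 11.49 to 11.88 in HGI and 11.54 to 11.82 in LGI, a difference of 0.056 (adjusted p = 0.940).

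Rpl7l1, a paralog of Rpl7 with a role in early large subunit assembly, stood at -0.10 ± 0.11 (adjusted p = 0.902), with 8.04 to 8.71 in HGI and 8.41 to 8.65 in LGI. Rpl7 stood at 0.092 (adjusted p = 0.875). Rpl3l, the muscle paralog of Rpl3, and Rpl39l, the paralog of Rpl39 known from testis, lay below the median of every array, at differences of 0.022 (adjusted p = 0.979) and -0.0034 (adjusted p = 0.998). Rpl39 stood at 0.014 (adjusted p = 0.991). The paralog Rps4l, annotated as a pseudogene and left out of the group, stood at -0.11 (adjusted p = 0.929).

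Of 8 proteins at the rim of the exit tunnel, 4 were members, with a median of 0.0090 and 1 below 0. With single arrays left out that median ran from -0.039 (without LGI 2, 3 of 4 below 0) to 0.068 (without HGI 1), and it was below 0 also without HGI 2, HGI 3, HGI 5 or LGI 5. Of 19 genes linked to Diamond-Blackfan anaemia, an inherited failure of red cell production, 11 were members, with a median of 0.031 and 3 below 0, and none was called. Their median ran from 0.011 without HGI 5 to 0.080 without HGI 1. The median difference was -0.010 in the 8 members with the run at the start and 0.037 in the 36 without. Members with CCGGAAG had a median of 0.0040 (21 genes) and members without it 0.043 (23 genes). These splits were described and not tested.

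The position of a mouse was largely shared across members, and the HGI mice spread more widely. As a deviation from each gene's mean over the 10 arrays, the members' median was -0.18, 0.075, 0.033, 0.014 and 0.14 in HGI 1 to HGI 5. In LGI 1 to LGI 5 it was 0.020, -0.082, -0.0088, -0.011 and -0.038. HGI 1 was thus the lowest and HGI 5 the highest of the 10 arrays, and both ends belonged to the same diet. HGI 1 was the lowest mouse of its diet in 39 of 49 members, and HGI 5 the highest in 27. LGI 4 was the lowest of its diet in 17 members and the highest in 19, which its median of -0.011 does not show. Members above their own mean numbered 6, 39, 33, 27 and 44 of 49 on the HGI arrays and 30, 9, 20, 24 and 12 on the LGI arrays.

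The low position of HGI 1 was not particular to ribosomal genes. Over the 886 bright genes, the median deviation was -0.23 in HGI 1 and between 0.0077 and 0.049 in the other 9 arrays. Without HGI 1, the members' median difference was 0.080, with 11 below 0 and still 0 called (smallest adjusted p 0.288). An unadjusted p under 0.05 was then seen in 10 members (20.4%), against 9.71% of all genes and 20.7% of the bright genes. The large subunit then stood at 0.10 and the small at 0.043, while all genes stood at -0.013 and the bright genes at -0.0053. In HGI 5, by contrast, the deviation of the bright genes was 0.014 where that of the members was 0.14.

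**Figure D3:**
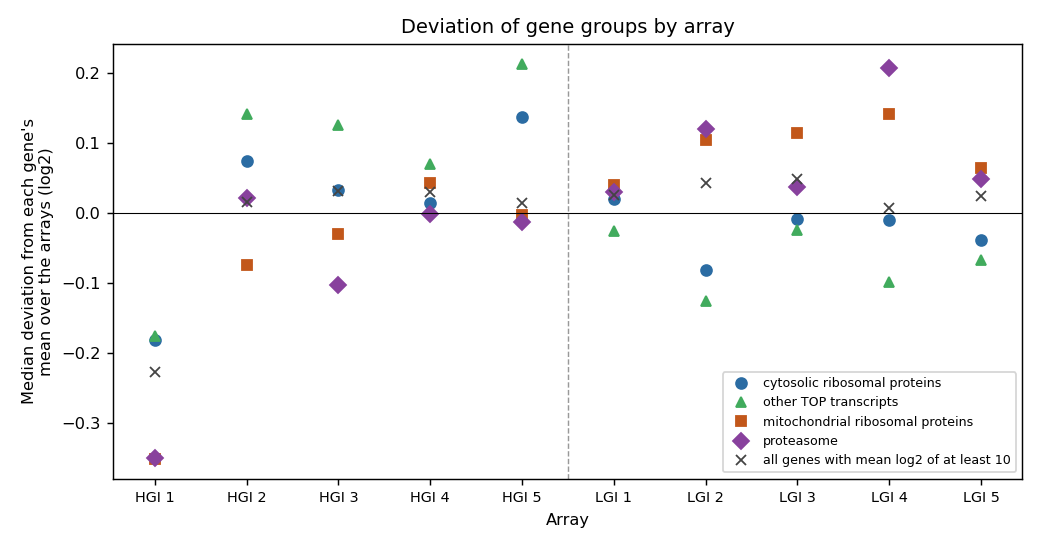
Median deviation of a gene group from the genes' own means (log2) on each of the 10 arrays, for the ribosomal protein members, other TOP transcripts, mitochondrial ribosomal proteins, proteasome genes and the bright genes (mean log2 of 10 or more). HGI 1 is the lowest array in all 5 groups, and in HGI 5 the members (0.14) and the other TOP transcripts (0.21) stand above the remaining groups.

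The other genes of the translation pathway were taken from lists chosen with earlier results of these data known. Of 17 further TOP transcripts, which encode elongation factors, the poly(A)-binding protein and other parts of the translation apparatus or host small nucleolar RNAs, 16 were measured. None was called, 13 lay above 0 and the median was 0.13. An unadjusted p under 0.05 was seen in 4 (25%), all higher in HGI, against 9.3% of all genes and 22.8% of the bright genes. The named members of that list were Snhg1, a host gene of small nucleolar RNAs, and Npm1, the nucleolar chaperone nucleophosmin. Snhg1 read 5.996, 7.31, 7.10, 6.87 and 7.08 in HGI and 6.43, 6.19, 6.18, 6.72 and 6.33 in LGI, a difference of 0.50 ± 0.21 (adjusted p = 0.590). HGI 1 was the lowest mouse of all, and the other 4 HGI mice lay above every LGI mouse. Without HGI 1 and LGI 4 the difference was 0.81 (adjusted p = 0.026). That pair was chosen after seeing the data. It holds the lowest HGI and the highest LGI value of Snhg1, so leaving it out must widen the difference. Of 39 named genes over 20 alternatives, this was the 1 past the threshold, and it is not read as a call.

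Npm1 read 9.81, 10.19, 10.08, 10.33 and 10.25 in HGI and 9.89, 9.82, 9.83, 9.48 and 9.74 in LGI, a difference of 0.38 ± 0.11 (adjusted p = 0.379). Pabpc1, the cytoplasmic poly(A)-binding protein, was singled out after its values were seen, as the gene of the list whose diets did not overlap. That was 1 of 16 genes (6.25%), against 2.17% of all genes and 7.22% of the bright genes. Pabpc1 read 11.53, 11.68, 11.71, 11.48 and 11.64 in HGI and 11.39, 11.29, 11.28, 11.35 and 11.18 in LGI, a difference of 0.31 ± 0.078 (adjusted p = 0.270). Fau, which encodes the small subunit protein eS30 under another name, stood at -0.014 (adjusted p = 0.991).

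Factors that build the ribosome or start translation had medians below 0, as had all genes (-0.025, with 58.2% below 0). Of 49 ribosome biogenesis genes, 48 were measured, 34 (70.8%) lay below 0 and the median was -0.061. Riok2, a kinase of late small subunit assembly, stood at -0.35 ± 0.26 (adjusted p = 0.823) and Wdr75, a factor of the early small subunit precursor, at 0.23 (adjusted p = 0.813). Of 28 translation initiation factors, 23 were measured, 16 (69.6%) lay below 0 and the median of -0.028 was near that of all genes. Eif1ax, which helps select the start codon, stood at -0.18 (adjusted p = 0.762). Eif2b3, a subunit of the exchange factor eIF2B, stood at -0.16 (adjusted p = 0.803). No gene of either list was called or had an unadjusted p under 0.05. Leaving out HGI 1 brought the median of the biogenesis genes to -0.0013, that of the initiation factors to 0.035 and that of all genes to -0.013.

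Of the 11 RNA polymerase I genes, which transcribe and regulate ribosomal RNA, 7 (63.6%, against 58.2% of all genes) lay below 0. The median was -0.020, near the -0.025 of all genes, and ran from -0.064 without HGI 5 to -0.0026 without HGI 1. Taf1a, a subunit of the selectivity factor SL1, stood at 0.23 (adjusted p = 0.578) and Polr1a, the largest subunit of the enzyme, at -0.20 (adjusted p = 0.746), or 0.042 as the mean of all its probe sets. Of 33 genes of mTORC1, the S6 kinases and Myc, 30 were measured, with 15 below 0 and none called. Myc, a transcription factor that drives ribosomal genes, stood at 0.39 ± 0.22 (adjusted p = 0.746), with 5.42 to 7.03 in HGI and 5.63 to 6.09 in LGI. Rps6ka3, a ribosomal S6 kinase of the Erk pathway, stood at 0.28 (adjusted p = 0.707). In both genes the diets overlapped.

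Other large complexes lay on the other side of 0, on which 58.2% of all genes also lay. Of the 76 mitochondrial ribosomal protein genes, 72 (94.7%) lay below 0, the median was -0.19, 27 (35.5%, against 9.3% of all genes) had an unadjusted p under 0.05, all lower in HGI, and 9 (11.8%, against 2.17% of all genes) did not overlap between the diets. None was called (smallest adjusted p 0.352). Mrpl28 read 8.38, 8.95, 8.95, 8.89 and 8.90 in HGI and 9.02, 9.18, 9.21, 9.25 and 9.16 in LGI, without overlap, a difference of -0.35 ± 0.11 (adjusted p = 0.454). Both Mrpl28 and Mrpl47 belong to the large mitochondrial subunit, and Mrpl47 stood at -0.33 ± 0.093 (adjusted p = 0.364).

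Of the 44 proteasome genes, whose products degrade tagged proteins, 41 (93.2%) lay below 0, the median was -0.20 and none was called (smallest adjusted p 0.447). Psmd14, the deubiquitinase of the lid, stood at -0.37 ± 0.12 (adjusted p = 0.447) and Psmb3, a beta subunit of the core, at -0.35 ± 0.13 (adjusted p = 0.535). Without HGI 1 the medians of the mitochondrial ribosomal and proteasome groups were -0.11 and -0.13, with 65 of 76 and 39 of 44 below 0. The members' median lay above those of both groups in the fit of all arrays and in the fit without HGI 1. The difference between groups of genes was not tested.

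Ribosomal protein genes have many processed pseudogenes of near-identical sequence, so signals of single members are uncertain. In 33 members the name of the chosen probe set ends in _x_at, _s_at or _a_at, by which Affymetrix marks sets able to read several transcripts. In 16 it has the plain ending _at. The 33 were not split by whether those transcripts come from the same gene or from others. Which pseudogenes a probe set of either kind reads was not checked. The 49 members had 105 single-symbol probe sets, 24 members had several, and 4 of these had 6, the most of any member. Of 21 genes with several probe sets above the array medians, 14 had the same sign on all and 7 had both signs, and the median gap between probe sets of a gene was 0.088. The largest gap was in Rps3, named after its values were seen, at 0.33. None of the 105 probe sets was called, and the smallest adjusted p was 0.461.

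A further 31 symbols of the rule, among them Rplp1, Rpl3, Rpl5, Rpl10 and Rpl13, occurred only in probe sets that carry several symbols, and Rps27a had no probe set named here. The 110 probe sets that carry several symbols, at least 1 of them of the rule, had a median difference of 0.068. Of these, 28 (25.5%) lay below 0, 8 (7.27%, against 7.54% of all probe sets) had an unadjusted p under 0.05 and 0 were called (smallest adjusted p 0.469). Because each of them can read more than 1 gene, they were kept apart from the members and were examined after the members' values had been seen.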

How the data were processed

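The authors deposited 1 log2 value for each probe set and array, and the submitters' processing notes name RMA and R 2.6.1. RMA fits arrays to a shared distribution, which can lessen a change common to most genes. Of 45101 probe sets, 64 controls were left out and 45037 were tested. Symbols came from the platform annotation: 34945 probe sets had 1 symbol, 932 several and 9160 no entry. RefSeq gene IDs (GRCm38.p6) matched 34741 and changed 0 symbols.

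HGI was compared with LGI in limma 3.58.1 (R 4.3.3; lmFit and eBayes), without covariates. Benjamini-Hochberg adjustment ran over all probe sets, and all adjusted p are limma's. Errors after ± are standard errors unless marked SD, and n is 5 mice per diet. The number of arrays limits the precision. Exact permutations were two-sided. The procedure was tested on simulated data.

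Named genes were the 3 largest and 3 smallest differences of each subunit (paralogs counted with their subunit), Rplp0, Rplp1, Rplp2, Rpsa, Rps6, Rpl5, Rpl11, Rps27a and Rpl3 where measured, the paralogs and their partners, and the 2 largest absolute differences of every other list. The members and lists were chosen with earlier results of these data known. Alternatives were filters, normalizations, array weights, a replicate block, other probe set choices and leaving out arrays. Same-numbered mice of the diets did not deviate together and were not paired.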

Additional observations from a re-analysis of the deposited data

Results flagged for a closer look

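In 88 groups of 5 arrays that were examined, 9 had 1 array far from the other 4 (a gap to the nearest array over 0.71 of the group's range); chance alone flags about 1 in 20 groups. HGI 1 stood apart in 5 of them. It was low for Rpl22l1 (10.07, the nearest HGI array at 10.56), for Rps27l (10.69, nearest 11.16) and for Mrpl28 (8.38, nearest 8.89). It was also low in the median deviation of the bright genes (mean log2 of 10 or more) (-0.23, nearest 0.014) and in the spread of its values (SD 2.16, nearest 2.27). In LGI, single arrays stood apart for Rplp2 (LGI 4 at 11.69, nearest 11.43), Rps6 (LGI 1 at 7.65, nearest 7.80), the pseudogene Rps4l (LGI 3 at 4.19, nearest 4.61) and Myc (LGI 2 at 6.09, nearest 5.74).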

How the results depend on the processing

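No member passed the threshold under any alternative run, including leaving out each array (0 to 0 called). The members' median stayed above 0 in all of them: it ranged from 0.010 to 0.080 over single arrays left out, and was 0.066 with array weights, 0.050 with quantile normalization again, 0.018 with plain _at probe sets and 0.094 without HGI 1 and LGI 4; the count of members below 0 ranged from 11 to 23. That count was 10 with a filter at a mean log2 of 10, 8 with plain _at probe sets and 10 without HGI 1 and LGI 4, where the first 2 hold fewer members by construction. With plain _at probe sets 26 members remained, of which only 16 kept their chosen probe set. Others were read by a different one, which was dim in Rpl41 and Rps9 (mean log2 2.82 and 2.81) and bright in Rps15 (11.86). Over all probe sets the 29 calls became 64 with array weights, 17 with median centring, 63 with quantile normalization again, 58 without HGI 1 and LGI 4 and 5 to 49 with single arrays left out; the cause was not tested. With a replicate block there were 33 calls over all probe sets and 0 among members, and the deviations of same-numbered mice correlated between -0.053 and 0.069. Sign changes were seen with array weights Rpl38 (0.0018), Rpsa (0.015), Rpl3l (-0.014) and Fau (0.050); with quantile normalization again Rpsa (0.0075), Rpl39l (0.0065), Rps27 (-0.0042) and Fau (0.019); without HGI 1 and LGI 4 Rpl38 (0.026), Rpsa (0.033), Rpl3l (-0.031) and Fau (0.049); with the mean of all probe sets Polr1a (from -0.20 to 0.042). Over single arrays left out, the sign changed in Fau (-0.082 to 0.070), Rpl3l (-0.019 to 0.076), Rpl39 (-0.065 to 0.066), Rpl39l (-0.062 to 0.059), Rps27 (-0.024 to 0.037) and Rpsa (-0.080 to 0.017). Leaving out HGI 1 and LGI 4 together was chosen after seeing the data.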
